A study of Mus musculus with 6 samples.

Results

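Genes whose proteins control how fast cytokine mRNAs are degraded were followed in mouse liver 1 h after an injection of interleukin-6 (IL-6). The set held 10 genes, Zfp36, Zfp36l1, Zfp36l2, Zc3h12a, Zc3h12c, Rc3h1, Rc3h2, Arid5a, Btg1 and Btg2. They were taken by gene symbol from the annotation of the array and were represented by 12 of 35556 probe sets, or 10 of 19938 genes with a symbol of their own. They were chosen because several of them are higher after IL-6 in these same arrays. Their differences between IL-6 and saline are therefore given as a description. No p-value is given for a member. The intervals describe the spread between arrays, with variances moderated over all genes in limma, and are no test. The counts of members past a threshold are evidence of nothing.

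The animals were male C57BL6 mice, an inbred laboratory strain, 10 weeks old and fasted for 16 h. The control group received saline into the peritoneal cavity, and the treated group received 100 ng of IL-6 per mouse by the same route. Whole livers of both groups were taken after 1 h, and each of 6 arrays held the RNA of 1 sample, 3 from saline and 3 from IL-6. Fasting and handling were common to both groups, and fed or uninjected animals were not analysed here. The labels do not state that each sample came from a mouse of its own, so the spread between arrays may be partly technical.

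Many mRNAs of inflammation carry AU-rich elements or stem-loops in their 3′ untranslated regions, and proteins that bind them set the lifetime of the message. Zfp36 (tristetraprolin) and its relatives Zfp36l1 and Zfp36l2 bind AU-rich elements through zinc fingers and bring in the CCR4-NOT deadenylase. Zc3h12a (regnase-1) is an endonuclease that cuts stem-loops of messages such as that of IL-6 itself, Zc3h12c is its relative, and Rc3h1 and Rc3h2 (roquin-1 and roquin-2) bind similar stem-loops. Arid5a acts the other way, protecting messages such as those of IL-6 and Stat3 from regnase. Btg1 and Btg2 are antiproliferative proteins that bind the deadenylase subunits Cnot7 and Cnot8.

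All values are log2 expression as deposited, made with RMA, which equalises the distributions of the arrays. A difference of 1 on this scale is a doubling. Array medians lay between 5.42 and 5.48, and correlations of arrays within a group (0.989 to 0.991) were close to those between groups (0.987 to 0.990). In the second principal component, saline replicate 2 and IL-6 replicate 3 stood apart from the other 4 arrays. IL-6 signalling was visible in every treated array, since Socs3, the feedback inhibitor that IL-6 induces, was between 9.45 and 9.63 there and between 6.18 and 6.61 after saline. Of 12 hepatocyte markers 9 were measured, and all 9 lay above the median level of all genes. The level of no member lay below the 25th percentile of all genes (4.59), and 9 of 10 lay above the median.

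The stretches of DNA before the start sites of 4 members are shown because they set a pair of members that were higher after IL-6, Zfp36 and Zfp36l1, beside the pair Btg2 and Btg1, of which Btg2 was higher and Btg1 was not. They are the 250 bases upstream of the annotated start, from RefSeq on GRCm38.p6, written 5′ to 3′ along the gene, and capitals mark the motifs that a search found.
Zfp36 (chr7:28379229-28379478, minus strand): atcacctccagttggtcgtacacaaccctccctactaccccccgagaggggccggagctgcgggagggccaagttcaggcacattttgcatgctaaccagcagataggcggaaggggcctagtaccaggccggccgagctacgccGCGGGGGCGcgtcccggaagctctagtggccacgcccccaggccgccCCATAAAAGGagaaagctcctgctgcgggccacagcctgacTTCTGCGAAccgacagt
Zfp36l1 (chr12:80113014-80113263, minus strand): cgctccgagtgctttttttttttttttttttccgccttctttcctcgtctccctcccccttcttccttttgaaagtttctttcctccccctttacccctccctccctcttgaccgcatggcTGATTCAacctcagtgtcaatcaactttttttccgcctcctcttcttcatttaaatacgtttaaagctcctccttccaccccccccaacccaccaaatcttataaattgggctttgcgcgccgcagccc
Btg2 (chr1:134079156-134079405, minus strand): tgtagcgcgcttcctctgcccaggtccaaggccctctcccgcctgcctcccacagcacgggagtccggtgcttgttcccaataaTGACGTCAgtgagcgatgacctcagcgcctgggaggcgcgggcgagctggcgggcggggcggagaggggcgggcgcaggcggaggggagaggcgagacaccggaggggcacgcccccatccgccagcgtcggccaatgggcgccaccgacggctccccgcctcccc
Btg1 (chr10:96616751-96617000, plus strand): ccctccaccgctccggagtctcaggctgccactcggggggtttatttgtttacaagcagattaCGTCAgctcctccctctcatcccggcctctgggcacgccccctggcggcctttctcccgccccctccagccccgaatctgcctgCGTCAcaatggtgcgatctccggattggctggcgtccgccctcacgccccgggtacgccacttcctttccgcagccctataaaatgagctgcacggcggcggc

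The search ran on both strands of windows of 300 bases, from 250 before to 50 after the start. Of the 10 members, 9 were found in the table of promoters, and Zfp36l2 was not. The Zfp36 window held the STAT motif TTCNNNGAA, beginning 17 bases before the start (position -17), a motif that 8.3% of all 32851 windows held. It also held a CArG box, the binding motif of serum response factor, at -58 (1.63% of windows), and the EGR motif GCGGGGGCG at -105 (2.91%). Btg2 held the cyclic AMP response element TGACGTCA at -166, as did 1.79% of windows. Its core TGACG, which is part of that element, occurred in 20.8% of windows and in 4 members, Btg2, Btg1 (at -187 and -103), Zc3h12a and Zc3h12c. The AP-1 motif TGANTCA was in 7.81% of windows, and was found in Zfp36l1 at -129 and in Rc3h1 at -133. The strict STAT motif TTCCNGGAA (1.15% of windows) and the kappaB motif (4.51%) were in no member's window. The ratio of observed to expected CpG lay above the median of all windows (0.38) in 9 of the 10 windows of members, at 0.70 to 0.94, and below it in 1 of the 2 windows of Zc3h12c (0.18). Arid5a and Rc3h2 held none of the 8 motifs, so no motif was common to the members that were higher after IL-6. A match is only a match of letters, and its absence says nothing beyond this window.

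The differences after IL-6 were larger for some of these genes than for others, and the split ran through the families. Those of Zfp36, Zfp36l1, Zc3h12a, Arid5a and Btg2 were 0.47 or more. Those of Zfp36l2, Zc3h12c, Btg1 and both roquins were 0.14 or less. Zfp36l2 and Rc3h1, in the probe sets used, were still higher in every treated array than in any control. Not passing the threshold below therefore does not mean that a gene did not rise. In limma with Benjamini-Hochberg adjustment over all genes, 5 of 10 members passed the threshold of 0.05 as higher and 0 as lower, and 0.386% of all genes passed as higher. That number was 2 to 4 with 1 array left out (2 without replicate 1 or replicate 3 of the IL-6 group). It was 1, Zfp36, without both saline replicate 2 and IL-6 replicate 3, and also when every probe set was tested, where 0.0478% of 35556 passed. The set was chosen on this comparison in these arrays, so nothing is read from any of these counts. The median difference of the 10 members was 0.30, beside 0.003 over all genes.

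**Figure D1:**
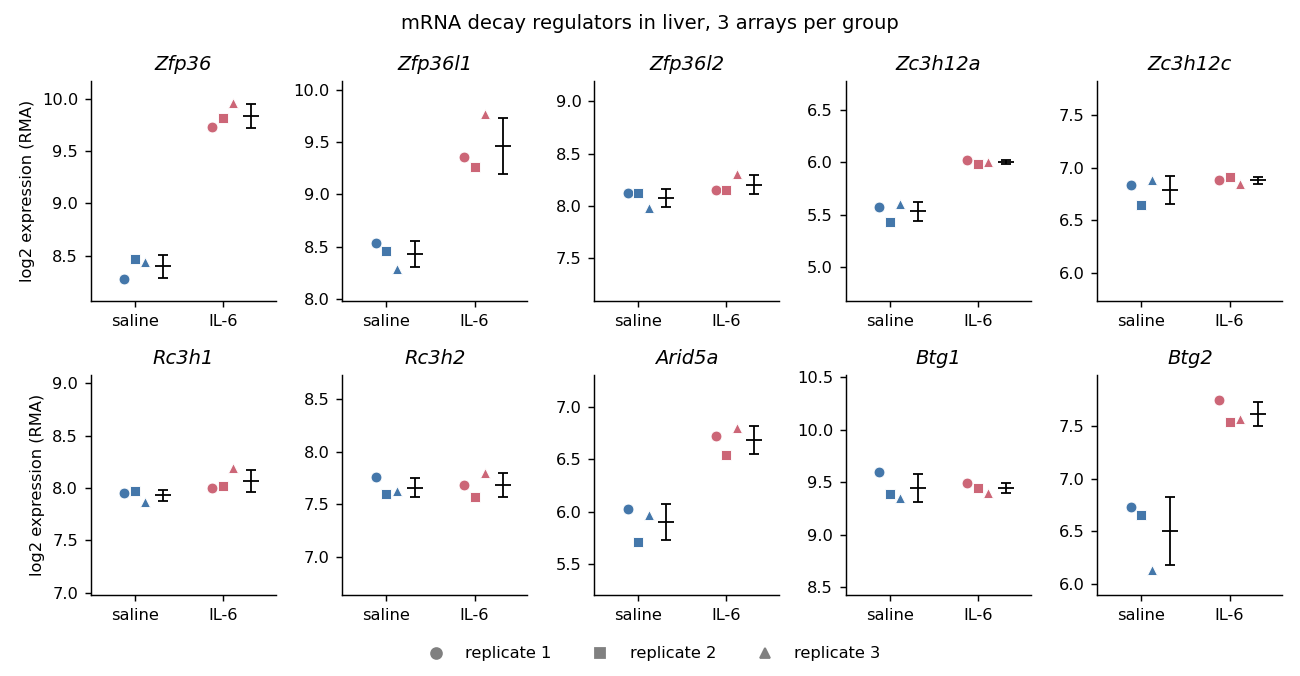
Log2 expression (RMA, vertical axes, all of the same span) of each of the 10 members in 3 saline (blue) and 3 IL-6 (red) arrays, with the mean and SD of each group in black and the replicate number given by the shape. Zfp36, Zfp36l1, Zc3h12a, Arid5a and Btg2 show groups set apart by 0.38 to 1.25, while those of Zc3h12c, Rc3h2 and Btg1 overlap and those of Zfp36l2 and Rc3h1 are 0.02 and 0.03 apart.

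Zfp36 was at 8.28, 8.47 and 8.44 in the saline arrays and at 9.73, 9.82 and 9.96 in the IL-6 arrays. The lowest treated array lay 1.25 above the highest control, while the 3 controls spanned 0.20. The means were 8.40 ± 0.11 and 9.83 ± 0.12 (SD, n = 3 each), a log2 difference of 1.43 ± 0.09 (standard error) or 2.70-fold, the largest of the set and rank 17 among all 19938 genes.

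Zfp36l1, best known for roles in development, B cells and the bile acid enzyme Cyp7a1, was at 8.54, 8.46 and 8.29 after saline and at 9.35, 9.26 and 9.77 after IL-6. The groups did not overlap, and IL-6 replicate 3 stood above the other treated arrays. The difference was 1.03 ± 0.13, or 2.04-fold, and it was 0.88 without that array. Zfp36l2 was at 8.12, 8.13 and 7.98 after saline and at 8.16, 8.15 and 8.30 after IL-6, a difference of 0.13 ± 0.08 with a 95% interval of -0.06 to 0.31. Its groups stood only 0.02 apart, and groups that did not overlap were found for 11.6% of all genes, 6.15% with IL-6 higher and the remainder lower. Among the members the groups did not overlap in 7 of 10, IL-6 being higher in each, and nothing is read from that count either.

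The difference of a pair of genes within an array is not altered by a shift of the whole array. Zfp36 minus Zfp36l2 went from 0.32 ± 0.16 to 1.63 ± 0.05 (SD, n = 3), a shift of 1.31 ± 0.10. Here and below, the standard error of such a shift comes from the 6 values of that pair alone. Those of single genes come from limma, so the standard errors of shifts and of genes are not comparable. Zfp36l1 minus Zfp36l2 shifted by 0.90 ± 0.11, and Zfp36 minus Zfp36l1 by 0.40 ± 0.16, the latter with groups just apart (-0.26 to 0.15 and 0.19 to 0.55). The differences of Zfp36 and Zfp36l1 were closer to each other than either was to that of Zfp36l2. Each shift, here and below, is the difference of a member minus that of another. The set was chosen on those differences, so nothing is read from the shifts.

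Zc3h12a, which encodes regnase-1, was at 5.57, 5.43 and 5.60 after saline and at 6.02, 5.98 and 6.005 after IL-6. The 3 treated arrays had an SD of 0.02, and the gap to the highest control was 0.38. The difference was 0.47 ± 0.08, or 1.39-fold, the smallest of the 5 larger differences and above the largest of the remaining 5 (0.14, Rc3h1).

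The relative Zc3h12c was at 6.83, 6.64 and 6.89 after saline and at 6.88, 6.91 and 6.85 after IL-6, so the groups overlapped. The difference was 0.09 ± 0.08, with an interval of -0.10 to 0.28. A second, dimmer probe set of Zc3h12c had a difference of -0.23 ± 0.17, with treated arrays spread from 5.80 to 6.45. The 2 probe sets differ in sign, and these data do not show which one reports the gene. Zc3h12a minus Zc3h12c went from -1.26 ± 0.04 to -0.88 ± 0.04 (SD, n = 3), a shift of 0.38 ± 0.03.

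The roquins recognise stem-loops in messages such as those of Icos and Tnf. Rc3h1 was at 7.95, 7.97 and 7.87 after saline and at 7.996, 8.02 and 8.19 after IL-6, a difference of 0.14 ± 0.08 with an interval of -0.04 to 0.32. Its second probe set gave -0.07 ± 0.09 with overlapping groups. Rc3h2 was at 7.76, 7.60 and 7.62 after saline and at 7.69, 7.57 and 7.80 after IL-6, a difference of 0.02 ± 0.09 with an interval of -0.17 to 0.22.

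Arid5a, the protein that shields messages from regnase, was at 6.03, 5.71 and 5.96 after saline and at 6.72, 6.54 and 6.80 after IL-6. The groups stood 0.51 apart, and the difference was 0.78 ± 0.11, or 1.72-fold. It was 0.69 without saline replicate 2, the lowest control, and 0.63 when IL-6 replicate 3 was left out as well.

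Btg2, a gene that p53 and growth signals induce, was at 6.73, 6.66 and 6.13 after saline and at 7.75, 7.54 and 7.57 after IL-6. Saline replicate 3 lay below the other controls, and the groups stood 0.81 apart. The difference was 1.11 ± 0.15, or 2.17-fold, and 0.93 without saline replicate 3. The within-group SD of Btg2, 0.24, exceeded that of 96.0% of all genes, and that of Zfp36l1, 0.21, exceeded that of 92.2%. Zfp36, at 0.11, was close to the median of all genes (0.11).

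Btg1 was at 9.60, 9.39 and 9.35 after saline and at 9.49, 9.45 and 9.40 after IL-6. All 3 treated values lay within the range of the controls. The difference was -0.001 ± 0.09, with an interval of -0.19 to 0.19, and Btg2 minus Btg1 shifted by 1.12 ± 0.15.

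**Figure D2:**
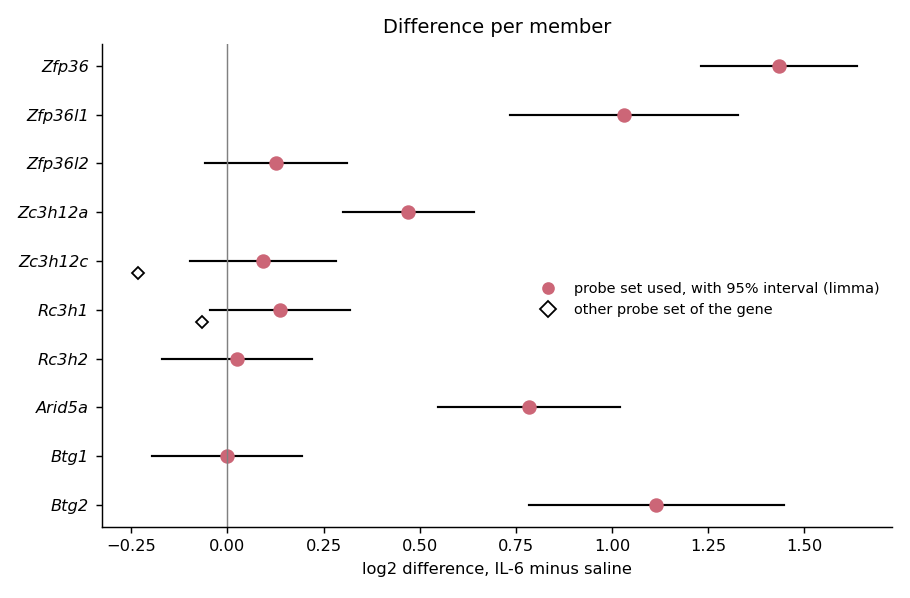
Log2 difference (IL-6 minus saline, horizontal axis) of each member, with its 95% interval from limma (lines), and of the second probe set of Zc3h12c and of Rc3h1 (open diamonds). The differences of Zfp36, Zfp36l1, Zc3h12a, Arid5a and Btg2 lie between 0.47 and 1.43 and those of the other 5 members between -0.001 and 0.14; the set was chosen on these values, so the intervals show spread and are no test.

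With each array left out in turn, the difference of Zfp36 ran from 1.37 to 1.49 and that of Zc3h12a from 0.42 to 0.50. The call of Zc3h12a was lost in all 6 of these runs. Those of Arid5a and Btg2 were lost in 2 each, and those of Zfp36 and Zfp36l1 in 0. These ranges and calls describe the same arrays on which the set was chosen and test nothing. The widest ranges were those of Btg2 and Zfp36l1, the members with the largest within-group SD.

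**Figure D3:**
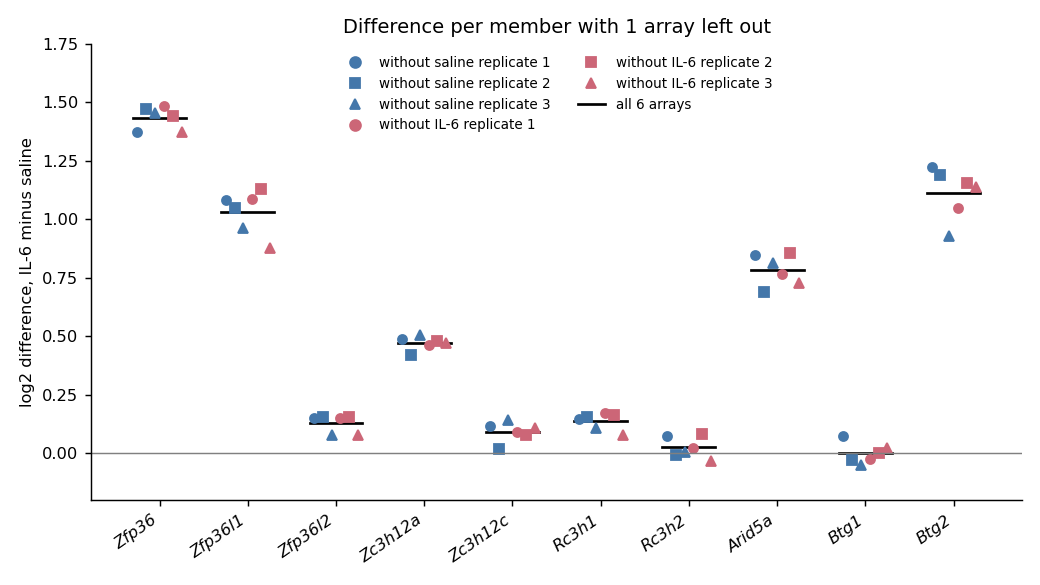
Log2 difference (IL-6 minus saline, vertical axis) of each member with all 6 arrays (black lines) and with 1 array left out (symbols, blue for a saline and red for an IL-6 array). The differences of Zfp36 (1.37 to 1.49), Zfp36l1 (0.88 to 1.13), Btg2 (0.93 to 1.22), Arid5a (0.69 to 0.86) and Zc3h12a (0.42 to 0.50) stay above those of the other 5 members, which lie between -0.05 and 0.17.

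Relatives of the members outside the set held a gene that rose. Of 8 measured relatives, 1 rose and 0 fell in limma, beside 0.386% of all genes that rose and 0.0351% that fell. The median difference of the 8 relatives was 0.02, beside 0.003 over all genes. The riser was Arid5b, a DNA-binding relative of Arid5a known in fat and liver metabolism, at 7.98, 8.05 and 8.03 after saline and 8.75, 8.82 and 9.14 after IL-6. Its difference was 0.89 ± 0.10 (limma adjusted p = 0.00615), higher in 3 of 3 treated arrays than in any control. The call was kept on leaving out any array (limma adjusted p up to 0.0351) and lost when every probe set was tested (0.104). Tob1 and Tob2, relatives of the Btg proteins that also bind the deadenylase, had differences of -0.54 ± 0.12 and -0.37 ± 0.09 and did not pass (limma adjusted p = 0.157 and 0.281). These Tob genes are named after their values were seen.

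In the machinery to which these proteins deliver mRNA, no gene passed the threshold. The lists held 16 genes listed as deadenylation factors, 30 decapping and exonuclease factors and 15 other proteins that bind regulatory elements of mRNA. In limma 0 of 61 passed, beside 0.421% of all genes, so nothing is read from that count. An unadjusted limma p under 0.05 was found for 2 of 61, beside 6.62% of all genes. The median differences of the lists, in that order, were -0.02, -0.01 and -0.009. The smallest p among the genes listed as deadenylation factors was that of Noct (nocturnin), at -0.29 ± 0.10 (limma adjusted p = 0.548). Cnot7, the deadenylase that Btg proteins bind, had -0.14 ± 0.08 (limma adjusted p = 0.853), and Parn, another deadenylase, 0.12 ± 0.09 (0.903). Among decapping factors, Edc3 had -0.32 ± 0.09 (limma adjusted p = 0.425), Exosc10 of the exosome 0.18 ± 0.09 (0.786) and Lsm6, of the ring that binds deadenylated ends, 0.18 ± 0.09 (0.796). The binders of AU-rich elements Tial1 and Tia1 had -0.12 ± 0.07 and -0.17 ± 0.10 (limma adjusted p = 0.870 and 0.877), and Samd4b, a relative of the fly protein Smaug, 0.11 ± 0.08 (0.906). Over all 61 genes the differences ran from -0.32 to 0.18.

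The p38-MK2 kinases phosphorylate Zfp36 and thereby hold it inactive, and IKK and Malt1 act on regnase. Of 21 such genes measured, 0 rose and 1 fell, beside 0.0351% of all genes that fell. Map2k6, a kinase that activates p38, was at 6.72, 6.98 and 6.67 after saline and at 5.93, 5.85 and 5.89 after IL-6. It fell by 0.90 ± 0.09 on the log2 scale (limma adjusted p = 0.00319), with all 3 treated arrays below all controls. That call was kept on leaving out any array (limma adjusted p up to 0.0229) and lost when every probe set was tested (0.0732). The median difference of the 21 genes was 0.03.

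Cytokine and other immune messages known as targets of these proteins mostly lay at low levels. Of 20 measured, 10 lay under the 25th percentile of level, a range in which signal and background are not easily told apart. In limma 1 of the 20 rose and 0 fell, beside 0.386% of all genes that rose and 0.0351% that fell. The riser was the neutrophil chemokine Cxcl1, at 7.12, 7.13 and 6.88 after saline and 10.23, 10.26 and 10.29 after IL-6. Its difference was 3.22 ± 0.09, or 9.30-fold (limma adjusted p = 4.32e-07), and it passed under each alternative run. The remaining 19 had differences up to 0.37 in size, and the list's median was 0.02. Il6 (2.04 and 2.06, saline and IL-6 means) and Tnf (5.29 and 5.16), named outside the rule as textbook targets, did not pass (limma adjusted p = 0.977 and 0.917).

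Among other transcripts described as targets, or as protected by Arid5a, 6 of 21 rose and 0 fell, beside 0.386% of all genes that rose, with a median difference of 0.21. This list was drawn up with earlier results of these data known, so its count is not independent evidence. These were Socs3 (3.15 ± 0.11, limma adjusted p = 1.45e-06), the neutrophil and hepatocyte siderophore binder Lcn2 (1.72 ± 0.22, 0.0107), the kinase Pim1 (1.52 ± 0.08, 2.83e-05), the kinase Plk3 (1.24 ± 0.19, 0.0276), the NF-kappaB cofactor Nfkbiz (0.55 ± 0.08, 0.0231) and Stat3 (0.52 ± 0.09, 0.04996). In each the 3 treated arrays lay above the 3 controls. Several are themselves known to be induced by IL-6 through STAT3, and transcription and mRNA lifetime cannot be told apart in these data. Leaving out single arrays ended the call of Stat3 in 5 of 6 cases (limma adjusted p up to 0.220), of Nfkbiz in 5 of 6 (up to 0.135) and of Plk3 in 4 of 6 (up to 0.173). The calls of Socs3, Pim1 and Lcn2 were kept on leaving out any array. The size for Socs3 depended on the probe set: with its probe sets averaged, the difference was 2.47 (limma adjusted p = 2.74e-05). When every probe set was tested, Socs3 and Pim1 passed and the other 4 did not (limma adjusted p from 0.147 to 0.218), and Lcn2 also missed the threshold with a robust variance prior with a trend (0.0581). Cyp7a1, the bile acid enzyme whose message Zfp36l1 is known to destabilise, had a difference of -0.03 ± 0.20 (limma adjusted p = 0.987).

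**Figure D4:**
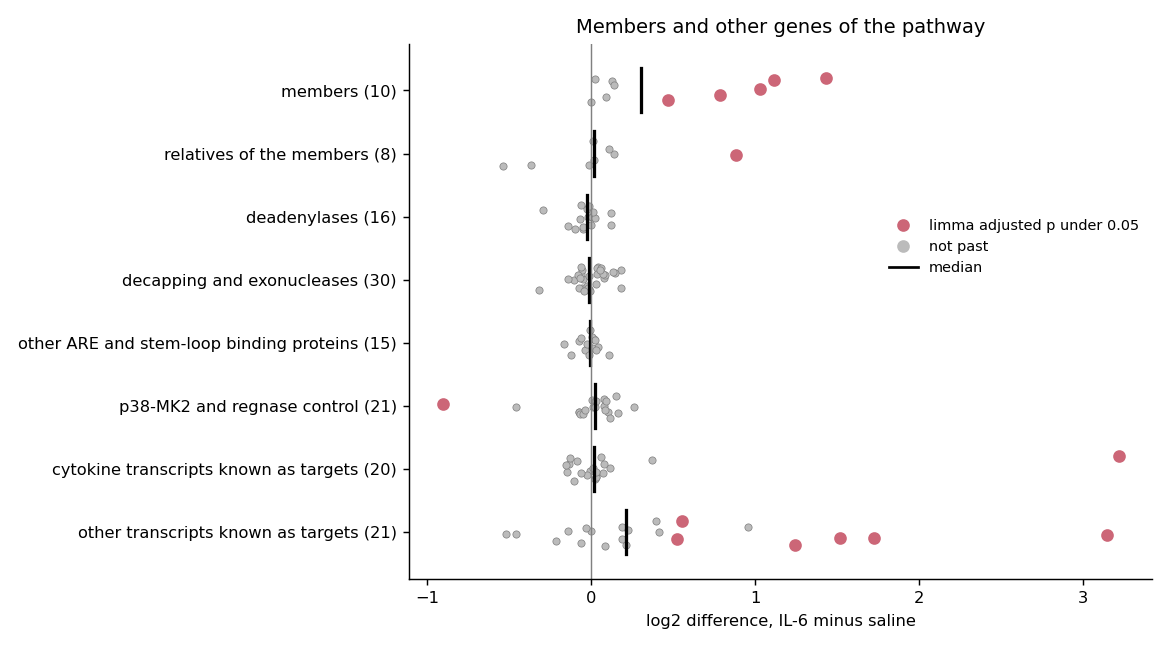
Log2 difference (IL-6 minus saline, horizontal axis) of the 10 members and of each measured gene of 7 lists of the pathway, with the number of genes in brackets, medians as black bars and genes past the limma threshold in red. The 3 lists of decay factors and binding proteins stay between -0.32 and 0.18 with 0 genes in red. The list of other target transcripts has 6, and 0.421% of all genes passed.

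Genes most like a member were sought over the whole table by the root-mean-square difference of 6 log2 values, each gene centred on its own saline mean. Nearest to Zfp36 were Pim1 (0.09), Saa4 (0.16), a serum amyloid A gene, and Jun (0.16), an AP-1 subunit. Nearest to Btg2 were Id3 (0.15), an inhibitor of helix-loop-helix factors, and the transcriptional repressors Nfil3 (0.16) and Bhlhe40 (0.16). Nearest to Zc3h12a were Slc9a3r1 (0.03), a scaffold protein, the adhesion molecule Icam1 (0.06) and Mid1 (0.07). The likeness rests on 6 arrays and takes in the size of the difference between the groups.

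Several members are also expressed in leukocytes. A change in the number of cells of a type and a change in RNA per cell cannot be told apart in whole liver. Of 13 Kupffer cell and macrophage markers 0 passed in limma, beside 0.421% of all genes. Positive differences were found for 12 of the 13, beside 10188 of all 19938 genes. An unadjusted limma p under 0.05 was found for 2 of the 13, beside 6.62% of all genes. Groups that did not overlap were found for 0 of the 13, beside 11.6% of all genes. The summed linear level of these markers ran from 1129 to 1267 after saline and from 1197 to 1434 after IL-6. Of 13 neutrophil markers 1 rose, beside 0.386% of all genes. Positive differences were found for 6 of the 13, and the median of the list was -0.008. The riser was S100a8 (0.65 ± 0.09, limma adjusted p = 0.0211). Its saline mean was 3.60, and 8 of the 13 markers lay under the 25th percentile of level. It passed only with all arrays or without IL-6 replicate 3, and the other arrays left out gave a limma adjusted p of up to 0.128. Its call was also lost when every probe set was tested (limma adjusted p = 0.152). Summed neutrophil levels were 283 to 303 after saline and 261 to 316 after IL-6.

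Markers of T and NK cells (11 measured) and B cells (7) held 0 called genes, beside 0.421% of all genes, and overlapped in their sums. The same held for those of hepatocytes (9), endothelial cells (10) and erythroid cells (3). In a pair of short lists the sums did not overlap, with 0 called genes each. Stellate cell and fibroblast markers (9) ran from 1680 to 1893 after saline and 1894 to 1966 after IL-6, and cholangiocyte markers (5) from 249 to 259.5 and from 287 to 311. Most of each difference came from 1 gene, chosen here after its values were seen. Of the mean difference of 149 in the stellate sum, the matrix proteoglycan gene Dcn gave 116 (log2 difference 0.18 ± 0.10, limma adjusted p = 0.845). Of the mean difference of 44.5 in the cholangiocyte sum, the transcription factor gene Sox9 gave 38.2 (0.41 ± 0.11, limma adjusted p = 0.326). Without that gene the sums of both lists overlapped. In the B cell list the same step did the reverse. Without Cd79b, the gene with its largest change, B cell sums were 122.6 to 127.9 after saline and 121.05 to 122.2 after IL-6. The part of these cell types in the members' differences was not tested.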

How the data were processed

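The 6 arrays were 1-colour Affymetrix arrays, with 3 samples per group. The deposited log2 values per probe set were made by the authors with RMA, per the submitters' processing notes; its version and settings, and the genome build of the design, are not given there. RMA can shrink large differences and hide a shift shared by most genes.

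The platform annotation gave 1 symbol to 21789 of 35556 probe sets. For each gene the probe set with the highest mean was kept (19938 genes), with no filter on level. IL-6 was compared with saline in limma 3.58.1 (R 4.3.3, lmFit, eBayes, two-sided, Benjamini-Hochberg over 19938 genes, threshold 0.05). The code was tried on simulated independent genes drawn from the fitted variance model. Such data cannot show how the fit handles correlated genes or outlying arrays. The number of arrays limits precision: the median standard error was 0.089, and an exact permutation test cannot go below p = 0.1.

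The members and lists were chosen with earlier results of these data known. Of each of 7 pathway lists, genes past the threshold are named, otherwise those with the smallest p (at most 3), and of 9 marker lists those past it. Likeness names 3 genes each for Zfp36, Btg2 and Zc3h12a. Genes outside this rule are marked so, apart from Cyp7a1, a known target of Zfp36l1. List genes without a probe set of 1 symbol were not analysed here. Promoters came from RefSeq; protein sequences were not used here. Alternatives were 3 other normalizations, a filter on level, other uses of probe sets, other variance priors, a replicate block, another threshold and arrays left out. Same-numbered samples did not deviate together (correlations 0.08, -0.12 and -0.09), so they were not treated as pairs. Figures used matplotlib 3.10.9.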

Additional observations from a re-analysis of the deposited data

How the results depend on the processing

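The members were chosen on these arrays, so nothing about them is read from the counts of members here. Over the alternatives run, no difference of a member or of another named gene that had passed the threshold changed its sign. Differences of members moved by more than their within-group SD in 3 cases and by less in 157: when probe sets were averaged, Zc3h12c was at -0.07 and Rc3h1 at 0.04, and without saline replicate 2 and IL-6 replicate 3, a setting chosen after seeing the data, Arid5a was at 0.63. Testing every probe set left 16 higher and 1 lower of 35556 probe sets, where 77 and 7 of 19938 genes had passed. There 1 member passed in place of 5, and 3 pathway list genes in place of 9. The cause was not tested. Leaving out both arrays just named left 31 higher and 2 lower genes and 1 member, with 2 arrays per group. A threshold of 0.1 gave 12 lower genes. With 1 array left out, there were 45 to 67 higher and 3 to 5 lower genes, 2 to 4 members and 6 to 8 pathway list genes. The replicate block, fitted although the numbers do not pair the samples, gave 59 higher and 6 lower genes, 4 members (without Zc3h12a) and 7 pathway list genes (without Stat3 and Nfkbiz), and S100a8 lost its call there (limma adjusted p = 0.0759). Median centring, cyclic loess, repeated quantile normalization, the filter on level and both variance priors kept the same 5 members. Signal limits the cytokine list, of which 10 of 20 genes lie under the 25th percentile of level.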
